A study of Mus musculus with 8 samples.

Results

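Macrophages in 4T1 mouse mammary tumors were followed here through 9 genes: the growth factor Csf1, its alternative Il34, their shared receptor Csf1r, the identity genes Adgre1 (which encodes F4/80), Cd68, Mertk and Fcgr1, and the myeloid genes Itgam and Ly6c2. They were chosen by name for their known roles, with earlier results of these data known. Ensembl identifiers of the count files were matched to mouse gene symbols, and the members make up 9 of the 25006 genes counted. All 9 passed the filter on low counts. RNA sequencing covered 8 tumor libraries. 4T1 cells, a model of triple-negative breast cancer, had been injected into the fat pad and the tumors taken within 20 days.

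The 4 groups combined host and tumor genotype, with 2 libraries each. Hosts were NSG mice, an immunodeficient strain without mature T, B or natural killer cells that keeps monocytes, macrophages and neutrophils, or Balb/c mice, the immunocompetent strain from which 4T1 came. In each host the wild-type group held one tumor library of the parental line and one of a line stably expressing vCas9, and the CD95 knockout group held clone 54 and clone 69, made with CRISPR/Cas9. CD95, encoded by Fas, is the receptor for Fas ligand. The same 4 lines were thus grown in both hosts, each knockout library stands for a single clone, and line differences are part of the spread within every group. NSG and Balb/c mice differ in strain background as well as in lymphocytes, which cannot be told apart here. Host age and sex, and how many tumors went into a library, were not given in the sources used here, so p-values measure the spread between these libraries.

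Macrophages depend on signalling through CSF1R, a receptor tyrosine kinase bound by CSF1, which many stromal and tumor cells secrete, and by IL34, known best from skin and brain. Circulating monocytes, marked in mice by high Ly6C and by the integrin subunit CD11b (Itgam), enter tumors and gain F4/80, CD68, the efferocytosis receptor MERTK and the high-affinity IgG receptor CD64 (Fcgr1) as they mature. Itgam is also carried by neutrophils and eosinophils, and Cd68 by most cells rich in lysosomes. The counts come from whole tumors, so that fewer macrophages and less RNA per macrophage cannot be told apart.

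The stretches before 4 members are shown because their levels moved in different ways between the groups described below. Each is the 250 bases before the RefSeq start of transcription (GRCm38.p6), read 5′ to 3′ on the gene's strand. Capitals mark GAGGAA or its reverse complement TTCCTC, a core recognised by PU.1, the myeloid factor encoded by Spi1. Of 32851 such stretches, 23.3% held at least 1 match and 3.54% held 2 or more. Stretches were at hand for 6 of the 9 members. Cd68 is shown for chr11:69666171-69666420 (minus strand), Fcgr1 for chr3:96293970-96294219 (minus strand), Itgam for chr7:128062390-128062639 (plus strand) and Mertk for chr2:128698665-128698914 (plus strand).
Cd68: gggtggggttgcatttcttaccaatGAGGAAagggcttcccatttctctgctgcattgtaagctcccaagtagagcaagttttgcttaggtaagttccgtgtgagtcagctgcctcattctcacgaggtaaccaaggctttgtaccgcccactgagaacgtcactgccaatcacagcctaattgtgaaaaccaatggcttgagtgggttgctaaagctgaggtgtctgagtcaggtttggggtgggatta
Fcgr1: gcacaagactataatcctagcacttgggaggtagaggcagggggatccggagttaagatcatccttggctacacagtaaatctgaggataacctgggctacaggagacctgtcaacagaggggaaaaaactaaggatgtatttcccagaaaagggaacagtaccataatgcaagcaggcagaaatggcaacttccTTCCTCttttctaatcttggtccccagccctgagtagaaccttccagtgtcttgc
Itgam: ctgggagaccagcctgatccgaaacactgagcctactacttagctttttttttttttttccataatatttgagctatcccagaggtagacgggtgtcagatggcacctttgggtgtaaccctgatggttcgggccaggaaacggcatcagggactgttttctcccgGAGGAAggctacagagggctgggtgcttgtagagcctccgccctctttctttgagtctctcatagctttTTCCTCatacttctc
Mertk: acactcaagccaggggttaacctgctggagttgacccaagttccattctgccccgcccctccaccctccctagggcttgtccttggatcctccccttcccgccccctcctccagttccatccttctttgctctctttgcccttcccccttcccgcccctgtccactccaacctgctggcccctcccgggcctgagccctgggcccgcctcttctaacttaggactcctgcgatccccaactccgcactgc
Itgam held 2 matches, Cd68 and Fcgr1 held 1 each, and Mertk and Csf1 held 0. Ly6c2 held 1 match before one of its annotated starts and 2 before the other. A match is a description of the letters and not of bound protein.

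Library totals ran from 8680070 to 19655945 counts, and 3 counts corresponded to 0.159 to 0.321 CPM (counts scaled to a common library size). Il34 had between 26 and 193 counts, Ly6c2 between 59 and 351, and the other 7 members at least 222, so that counting error matters most for Il34 and Ly6c2. Fas itself lay between 12.9 and 33.9 CPM in NSG and between 27.1 and 51.6 CPM in Balb/c tumors, and neither knockout comparison passed (edgeR, adjusted p = 0.628 and 0.225). Reads over the whole gene do not show an edit, and host cells carry intact Fas, so this neither checks nor contradicts the labels. Il2rg, the gene disrupted in NSG hosts, lay between 5.82 and 7.49 CPM in NSG and between 98.3 and 157 CPM in Balb/c tumors. Tumor epithelial markers (7 of 7) were counted in all 8 libraries, with summed levels between 695 and 3756 CPM.

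The members lie on 8 chromosomes of GRCm38 (GENCODE M21) and are protein-coding. Adgre1 lies at chr17:57358691-57483527 on the plus strand, Cd68 at chr11:69664213-69666153 on the minus strand, and Csf1r at chr18:61100598-61132149 on the plus strand. Csf1 lies at chr3:107741048-107760469 and Fcgr1 at chr3:96282909-96293969, both on the minus strand. Il34 lies at chr8:110741829-110805924 and Ly6c2 at chr15:75108158-75111970 on the minus strand, Mertk at chr2:128698956-128802894 and Itgam at chr7:128062640-128118491 on the plus strand. Whether counting used strand was not given in the sources used here. Csf1r shares 15.1% of its exonic bases with Hmgxb3 on the opposite strand; that gene had 396 to 522 counts per library. Of the distinct 50-base stretches of Ly6c2, 13.87% also occur in its neighbor Ly6c1, so reads of these paralogs may be split in an uncertain way. Itgam shares 68.7% of its exonic bases with the gene Gm49368 on the same strand, which is not among the genes counted.

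Between hosts, levels of the members differed in both directions in wild-type tumors, in calls that all ended when libraries were paired by line. Adgre1, Csf1, Itgam and Ly6c2 were higher in Balb/c than in NSG tumors, by 1.63 to 2.98 times, while Il34 and Fcgr1 were lower, by 2.87 and 3.02 times. Thus 6 of 9 members passed the test (4 higher and 2 lower), where 31.5% of the 15310 genes tested passed it (15.3% higher and 16.2% lower). The median log2 fold change was -0.17 over the members and -0.08 over all genes. Among knockout tumors, Adgre1, Cd68, Csf1r and Itgam were higher in Balb/c, by 2.62 to 5.69 times, and Il34 was lower by 3.01 times. That is 5 of 9 members (4 higher and 1 lower), against 31.1% of all genes (15.7% higher and 15.4% lower), with a median log2 fold change of 1.03 over the members and 0.02 over all genes. Groups did not overlap for 8 of 9 members between wild-type tumors (76.4% of all genes) and for 7 of 9 between knockout tumors (64.2%). An unadjusted p under 0.05 was reached by 7 of 9 members between wild-type tumors (45.8% of all genes) and by 7 of 9 between knockout tumors (43.4%). A call means a Benjamini-Hochberg adjusted p under 0.05 over all genes in edgeR's quasi-likelihood test.

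Since the same lines entered both hosts, the host comparisons were also fitted with the line as a block. That fit leaves fewer residual degrees of freedom than the main fit, so a lost call does not show that levels were alike. Under that pairing 0 of the 6 wild-type calls passed (adjusted p from edgeR between 0.0518 for Fcgr1 and 0.14 for Itgam), while 13.5% of all genes were called. Among knockout tumors 3 members passed with the block (18.8% of all genes), Adgre1, Cd68 and Itgam (edgeR, adjusted p = 0.00703, 0.0191 and 0.0232), and Csf1r and Il34 did not (edgeR, adjusted p = 0.0501 and 0.0576). Scaling by total counts moved the median of all genes from -0.08 to -0.24 between wild-type tumors. With it Adgre1, Csf1 and Itgam lost their calls there at log2 fold changes of 0.54, 0.84 and 0.60, while Mertk gained one at -1.15.

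**Figure D1:**
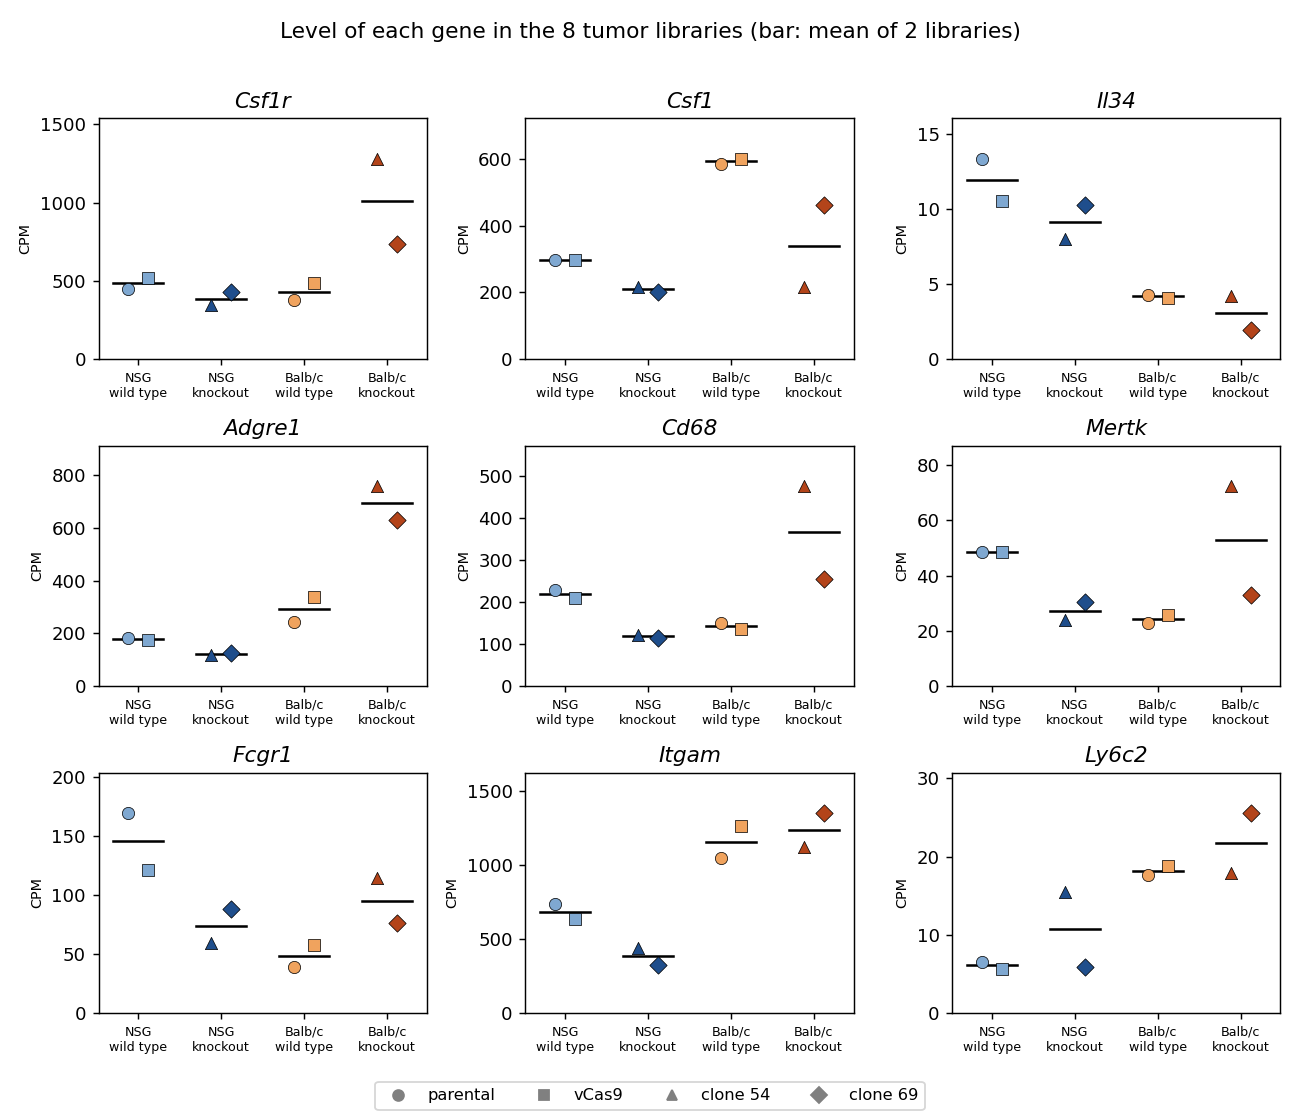
Level of each of the 9 genes in the 8 tumor libraries, in CPM, with one panel per gene, its own linear axis and a bar at the mean of 2 libraries. Symbols give the line (parental, vCas9, clone 54, clone 69); Il34 is higher in every NSG than in every Balb/c library, and Adgre1 is highest in the Balb/c knockout libraries.

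Csf1r was high in one group, the knockout tumors grown in Balb/c. In NSG tumors it read 450 CPM in the parental, 518 in the vCas9, 343 in the clone 54 and 428 in the clone 69 library. In Balb/c tumors it read 377 CPM in the parental, 485 in the vCas9, 1282 in the clone 54 and 737 in the clone 69 library. Both Balb/c knockout libraries lay above the other 6. Of the other groups, the NSG wild-type libraries lay above the NSG knockout libraries, and the Balb/c wild-type range overlapped both. Clone 54 exceeded clone 69 there by 1.74 times. Against NSG knockout tumors the difference reached 1.39 on the log2 scale (SE 0.30; edgeR, adjusted p = 0.0115), and it did not pass without the NSG library of clone 54 (log2 fold change 1.24). The estimate between hosts in wild-type tumors was -0.17 (SE 0.30, edgeR, adjusted p = 0.685).

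The ligand Csf1 had its highest levels in wild-type tumors of Balb/c mice. It stood at 297 CPM in both wild-type NSG libraries, and at 217 CPM in clone 54 and 202 CPM in clone 69 there. In Balb/c hosts it stood at 586 CPM in the parental and 602 CPM in the vCas9 library, then at 216 CPM in clone 54 and 462 CPM in clone 69. Wild-type tumors of the hosts were thus apart by 2 times with little spread (log2 fold change 1.0, SE 0.32, edgeR, adjusted p = 0.0477), a call that ended without any one of the 6 libraries outside the Balb/c knockout group. The Balb/c knockout libraries, by contrast, lay on either side of the NSG wild-type level, and the host log2 fold change of knockout tumors was 0.69 (SE 0.32, edgeR, adjusted p = 0.137), or 1.12 and called without clone 54 in Balb/c. Clone 54, which had the highest Csf1r of the 8 libraries, had the lowest Csf1 of the 4 Balb/c libraries.

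Il34 was sparse and followed the host. NSG libraries held 13.4 CPM (parental), 10.5 CPM (vCas9), 8.03 CPM (clone 54) and 10.2 CPM (clone 69). Balb/c libraries held 4.25, 4.09, 4.18 and 1.90 CPM in the same order of lines. Every NSG value lay above every Balb/c value, and within Balb/c 3 of the 4 libraries lay close together. The log2 fold change between hosts was -1.52 in wild-type tumors (SE 0.38, edgeR, adjusted p = 0.0224) and -1.57 in knockout tumors (SE 0.39, edgeR, adjusted p = 0.0187). Without the NSG library of clone 69, the call in knockout tumors was lost at -1.38.

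The balance of the CSF1R ligands within a library was compared over hosts as a difference of log2(CPM + 0.5), which cancels whatever scales both genes alike. Csf1 minus Il34 was 4.43, 4.75, 4.67 and 4.24 in the NSG libraries (parental, vCas9, clone 54, clone 69) and 6.95, 7.04, 5.53 and 7.59 in the Balb/c libraries. The sets did not overlap, with a mean of 4.52 ± 0.24 (SD, n = 4) in NSG and 6.78 ± 0.88 (SD, n = 4) in Balb/c. The difference was 2.26 (two-sided exact permutation test, p = 0.0286, the smallest that 4 against 4 can give; adjusted over 3 pairs 0.0429). Without any one of the NSG libraries p was 0.0571. The comparison pools wild-type and knockout tumors, and that test ignores that the same lines stand on both sides. Il34 alone already separated the hosts. For no pair does the adjustment cover the choice of members with earlier results known. Paired by line, the difference was above 0 in 4 of 4 lines, with p = 0.125 in a two-sided exact sign-flip test, the smallest that 4 pairs can give, so that no result could pass it.

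Per kilobase of annotated exon, a scale that allows genes to be compared, Csf1 read between 38.3 and 114 CPM per kb and Il34 between 0.968 and 6.82. Csf1r, at 59.3 to 222 CPM per kb, lay above Csf1 in 6 of the 8 libraries and above Il34 in all 8. Itgam ran from 64.9 to 269 CPM per kb and Cd68 from 91.7 to 380, ranges that overlapped those of Csf1r, Csf1 and Adgre1. Ly6c2 (2.06 to 9.34), Il34 and Mertk lay below the other 6 members in each of the 8 libraries, in an order that changed between libraries. Mertk (5.27 to 16.7) was the rarest of the identity genes in all 8 libraries.

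**Figure D2:**
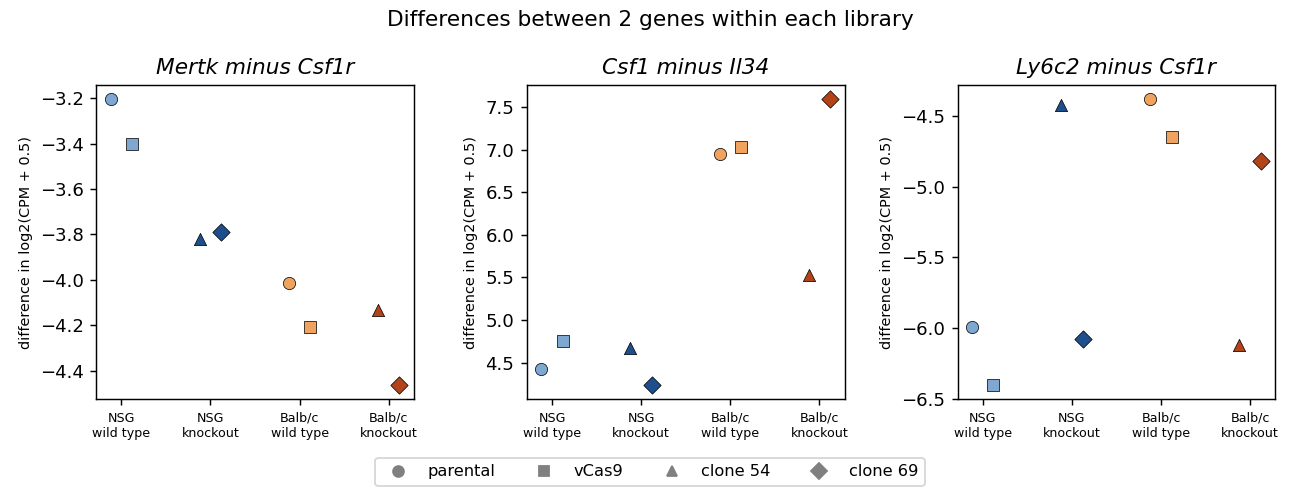
Difference in log2(CPM + 0.5) between 2 genes of the same library, for Mertk minus Csf1r, Csf1 minus Il34 and Ly6c2 minus Csf1r, by group and line. In the first and second panels no NSG library overlaps a Balb/c library; in the panel of Ly6c2 minus Csf1r they overlap.

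Adgre1, a surface receptor of mature mouse macrophages, separated all 4 groups. Its reads come from whole tumors, and the part of other cells such as eosinophils in them was not tested. NSG libraries read 184 CPM (parental), 175 CPM (vCas9), 119 CPM (clone 54) and 126 CPM (clone 69). Balb/c libraries read 245 CPM (parental), 338 CPM (vCas9), 761 CPM (clone 54) and 631 CPM (clone 69). No group overlapped another, in the order NSG knockout, NSG wild type, Balb/c wild type, Balb/c knockout. The host difference was 2.51 on the log2 scale in knockout tumors (SE 0.22, edgeR, adjusted p = 0.000426), which was kept without any single library and with the line block. In wild-type tumors it was 0.70 (SE 0.21, edgeR, adjusted p = 0.0399), which likewise ended without any one of the 6 libraries outside the Balb/c knockout group.

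Cd68, which encodes a lysosomal glycoprotein, did not follow the same order. Its levels in NSG tumors were 230 CPM (parental), 211 CPM (vCas9), 122 CPM (clone 54) and 115 CPM (clone 69). In Balb/c tumors they were 149 CPM (parental), 136 CPM (vCas9), 478 CPM (clone 54) and 255 CPM (clone 69). Groups did not overlap here either, but the Balb/c wild-type group stood between the NSG groups, with the NSG wild-type group above it. The host log2 fold change was 1.63 in knockout tumors (SE 0.28, edgeR, adjusted p = 0.00468) and -0.63 in wild-type tumors (SE 0.28, edgeR, adjusted p = 0.116). The wild-type value passed when either Balb/c knockout library was left out, at -0.54 and -0.63.

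Mertk, the receptor for GAS6 and protein S, which bridge it to dying cells, was level in the wild-type NSG libraries at 48.4 CPM (parental) and 48.5 CPM (vCas9), with 23.8 CPM in clone 54 and 30.5 CPM in clone 69. Balb/c libraries read 22.9 CPM (parental), 25.8 CPM (vCas9), 72.6 CPM (clone 54) and 33.0 CPM (clone 69). NSG knockout and Balb/c wild-type libraries overlapped, and the Balb/c clones, 2.20 times apart, stood on either side of the NSG wild-type level. Neither host comparison passed: the log2 fold change was -0.99 in wild-type tumors (SE 0.34, edgeR, adjusted p = 0.0558) and 0.96 in knockout tumors (SE 0.34, edgeR, adjusted p = 0.0631). The first passed by DESeq2 and when either Balb/c knockout library was left out, and the second by DESeq2 and without clone 69 in Balb/c (1.42).

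Relative to Csf1r, Mertk was lower in the Balb/c than in the NSG library of each of the 4 lines. Mertk minus Csf1r in log2(CPM + 0.5) was -3.21 (parental), -3.40 (vCas9), -3.82 (clone 54) and -3.79 (clone 69) in NSG. In Balb/c it was -4.02, -4.21, -4.13 and -4.46 in that order. All 4 Balb/c values lay below all 4 NSG values, with means of -4.20 ± 0.19 (SD, n = 4) and -3.56 ± 0.30 (SD, n = 4). The difference of -0.65 gave p = 0.0286 in the two-sided exact permutation test (adjusted over 3 pairs 0.0429), and p = 0.0571 without the Balb/c library of clone 69. That test treats the libraries as unpaired; the two-sided exact sign-flip test over the 4 lines gave p = 0.125, again the smallest possible, so that no result with 4 pairs could pass it.

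Fcgr1 had its highest values in wild-type NSG tumors. It read 170 CPM (parental) and 122 CPM (vCas9) there, with 59.4 CPM in clone 54 and 88.6 CPM in clone 69. Balb/c tumors held 39.3 CPM (parental), 57.4 CPM (vCas9), 115 CPM (clone 54) and 76.2 CPM (clone 69). The knockout libraries of the hosts overlapped, while the wild-type libraries were well apart. The host log2 fold change was -1.59 in wild-type tumors (SE 0.31, edgeR, adjusted p = 0.0102), lost when the parental library of either host was left out, and 0.37 in knockout tumors (SE 0.31, edgeR, adjusted p = 0.399).

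Itgam, the CD11b subunit of the β2 integrin Mac-1, separated the hosts. NSG tumors read 733 CPM (parental), 635 CPM (vCas9), 440 CPM (clone 54) and 326 CPM (clone 69). Balb/c tumors read 1044 CPM (parental), 1265 CPM (vCas9), 1121 CPM (clone 54) and 1352 CPM (clone 69). Every Balb/c library lay above every NSG library, and the Balb/c groups overlapped. The log2 fold change between hosts was 0.75 in wild-type tumors (SE 0.24, edgeR, adjusted p = 0.0483) and 1.69 in knockout tumors (SE 0.25, edgeR, adjusted p = 0.00251). The wild-type calls of Itgam, Ly6c2 and Il34 all ended when any of the 4 wild-type libraries was left out, where the lone library of a group is assumed to vary like the other groups.

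Ly6c2, a marker of inflammatory monocytes, was low throughout. It read 6.58 CPM (parental), 5.63 CPM (vCas9), 15.5 CPM (clone 54) and 5.87 CPM (clone 69) in NSG tumors. Balb/c values were 17.6 CPM (parental), 18.9 CPM (vCas9), 17.9 CPM (clone 54) and 25.6 CPM (clone 69). The NSG library of clone 54 stood apart from the other 3 and close to the Balb/c range. The host log2 fold change was 1.57 in wild-type tumors (SE 0.42, edgeR, adjusted p = 0.0269) and 1.03 in knockout tumors (SE 0.41, edgeR, adjusted p = 0.094). Without that NSG library the knockout value was 1.89 and passed. Ly6c2 minus Csf1r did not separate the hosts: it ran from -6.40 to -4.42 in NSG and from -6.12 to -4.38 in Balb/c (difference 0.73, two-sided exact permutation test, p = 0.371, adjusted over 3 pairs 0.371).

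Loss of CD95 was compared with wild type within each host, the study being about CD95 and the entry of immune cells into these tumors. In NSG tumors 8 of the 9 members had lower estimates in the knockout clones, and for each of these 8 the groups did not overlap (52.6% of all genes did not overlap). Log2 fold changes of these 8 ran from -0.98 for Fcgr1 (SE 0.31) to -0.33 for Csf1r (SE 0.30), and that of Ly6c2 was 0.80 (SE 0.42). No member passed edgeR's test (0 of 9, with 0.0131% of all genes called), the lowest adjusted p being 0.25 for Itgam at -0.84 (SE 0.24). At an unadjusted p under 0.05 there were 5 of 9 members and 14% of all genes. DESeq2 called 1 member, Itgam, among 339 genes (2.41% of those it tested). The median log2 fold change was -0.55 over the members and 0.01 over all genes. Markers of other cells lay on either side of 0 in this comparison. Dendritic cell markers had estimates below 0 as the members did, 6 of 7 (median -0.84, 0 of 7 passed edgeR's test, 5 of 7 at an unadjusted p under 0.05), with 6 of 7 not overlapping. They summed to 70.7 and 53.8 CPM in wild-type and 26.8 and 32.1 CPM in knockout tumors. T cell markers had estimates below 0 in 8 of 8 (median -0.54, 0 of 8 passed, 1 of 8 at an unadjusted p under 0.05), with 2 of 8 not overlapping. Several of these estimates rest on a handful of reads. Counts per NSG library ran from 0 to 1 for Cd3g, 0 to 2 for Cd8b1, 2 to 7 for Cd2 and 2 to 9 for Cd3d. So close to 0 a direction cannot be read, and nothing is concluded from the 8 of 8. Of the tumor epithelial markers 7 of 7 had estimates above 0 with groups that did not overlap (median 1.25, 0 of 7 passed edgeR's test, 3 of 7 at an unadjusted p under 0.05), and they summed to 1060 and 1321 CPM in wild-type and 2902 and 1910 CPM in knockout tumors. Of the fibroblast markers 7 of 7 had estimates above 0 (median 0.63), 6 of them with groups that did not overlap, and of the neutrophil markers 8 of 10 (median 0.71), 5 of the 10 without overlap; 0 of either list passed. The part of these cells in the members' lower estimates was not tested.

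In Balb/c tumors Csf1r and the identity genes had higher estimates in the knockout clones. Log2 fold changes were 1.36 for Cd68 (SE 0.28), 1.26 for Adgre1 (SE 0.21), 1.23 for Csf1r (SE 0.30), 1.12 for Mertk (SE 0.34) and 0.98 for Fcgr1 (SE 0.31). For Csf1 the estimate was -0.81 (SE 0.32) and for Il34 -0.44 (SE 0.39), while Itgam at 0.10 (SE 0.24) and Ly6c2 at 0.25 (SE 0.40) stayed within 1 SE of no difference. By edgeR 0 of 9 members passed, with 0.176% of all genes called (0.0457% higher and 0.131% lower), the adjusted p values of Adgre1 and Cd68 being 0.0564. At an unadjusted p under 0.05 there were 6 of 9 members and 30.9% of all genes, and for 6 of 9 members the groups did not overlap (62.2% of all genes). DESeq2 called 5 members, Adgre1, Cd68, Csf1r, Mertk and, lower, Csf1, among 2161 genes (15% of those it tested). The median log2 fold change was 0.98 over the members and 0.06 over all genes. Endothelial markers had higher estimates in the same tumors, 6 of 6 with groups that did not overlap and an unadjusted p under 0.05 (median 1.28, 0 of 6 passed edgeR's test), at summed levels of 176 and 243 CPM in wild-type and 477 and 417 CPM in knockout tumors. B cell markers had lower estimates, 5 of 5 (median -3.48, 0 of 5 passed), at 160 and 32.5 CPM in wild-type and 6.67 and 10.3 CPM in knockout tumors. Of the neutrophil markers 9 of 10 had estimates below 0 (median -1.80, 0 of 10 passed), with 6 of 10 at an unadjusted p under 0.05 and 9 of 10 without overlap. Of the dendritic cell markers 5 of 7 had estimates above 0 (median 0.30, 0 of 7 passed), 4 of the 7 without overlap. Of the 5 natural killer (NK) cell markers tested, 4 had estimates above 0 (median 0.75, 0 of 5 passed) and 4 did not overlap. They summed to 22.6 and 26.1 CPM in wild-type and 49.4 and 36.8 CPM in knockout tumors. The part of these cells in the members' estimates was not tested.

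The knockout clones themselves differed in Balb/c hosts, and of the 8 edgeR fits that each left out 1 library, only the one without clone 69 in Balb/c called members between knockout and wild-type tumors of that host. Clone 54 was above clone 69 by 1.88 times in Cd68, 2.20 in Mertk, 1.74 in Csf1r and 1.5 in Fcgr1, and at 0.467 times its level in Csf1. Wild-type libraries of the same host were within 0.685 to 1.09 times of each other for all 9 members. With clone 69 in Balb/c left out, 6 members passed among 3886 genes (24.8%): Cd68 at 1.75, Mertk at 1.58, Csf1r at 1.58, Adgre1 at 1.39 and Fcgr1 at 1.25, and Csf1 at -1.45. With clone 54 left out instead, 0 members and 1 gene passed. The log2 fold changes of Adgre1 and Mertk then read 1.01 and 0.34. Either fit rests on a single Balb/c knockout clone, whose spread is assumed from the other groups.

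**Figure D3:**
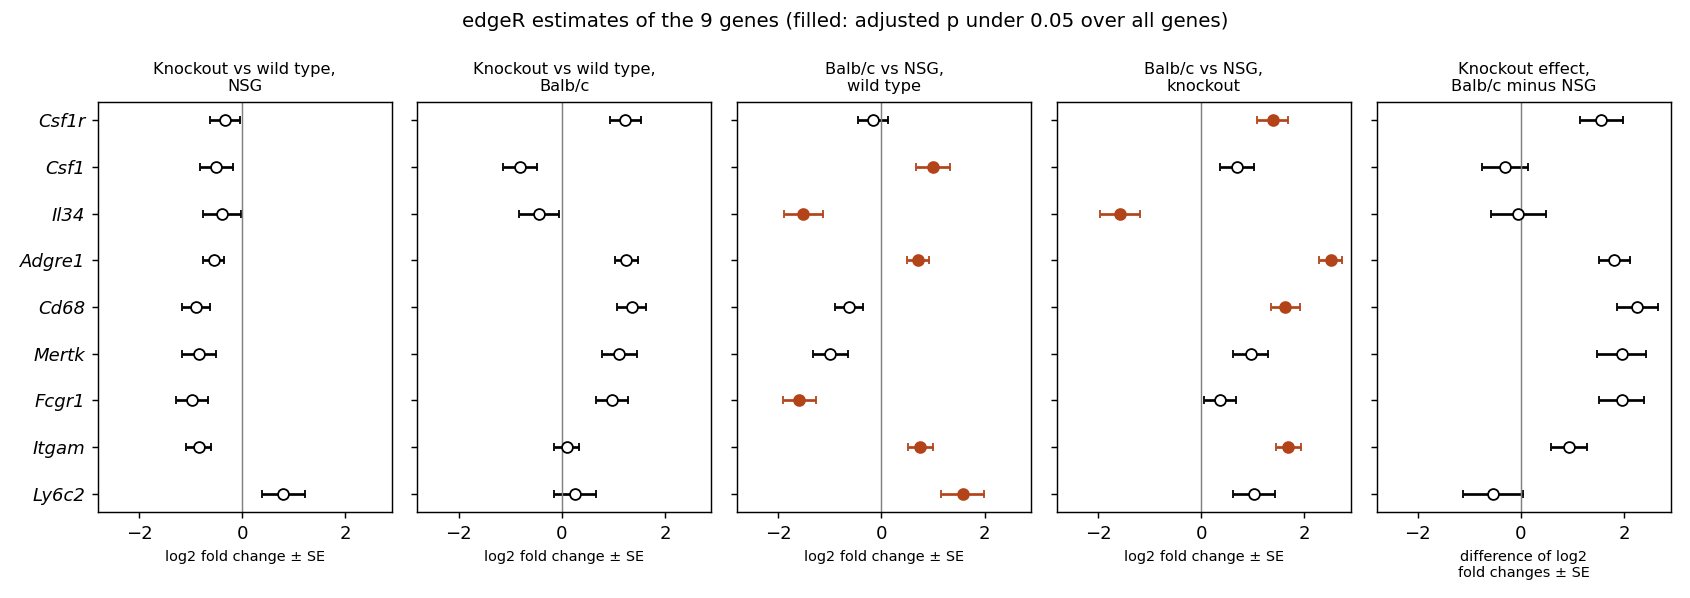
Log2 fold change of each of the 9 genes with its standard error (edgeR, 8 libraries) for the knockout against wild type in each host and for Balb/c against NSG in each genotype. The last panel gives the interaction, a difference of log2 fold changes (knockout effect in Balb/c minus that in NSG). Filled symbols passed an adjusted p under 0.05 over all genes; the knockout estimates of Adgre1, Cd68, Csf1r, Mertk and Fcgr1 are below 0 in NSG and above 0 in Balb/c, with none filled.

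The difference between hosts in the knockout effect was tested as an interaction. Its estimate was 2.25 for Cd68 (SE 0.40), 1.96 for Fcgr1 (SE 0.44), 1.95 for Mertk (SE 0.48), 1.81 for Adgre1 (SE 0.30), 1.56 for Csf1r (SE 0.42) and 0.94 for Itgam (SE 0.34). For Il34, Csf1 and Ly6c2 it was -0.05 (SE 0.53), -0.31 (SE 0.45) and -0.55 (SE 0.58). By edgeR 0 of 9 members passed, as did 0% of all genes, with the lowest adjusted p of a member at 0.0778 (Adgre1) and the lowest of any gene at 0.0691. An unadjusted p under 0.05 was reached by 6 of 9 members and 22.5% of all genes. DESeq2 called 5 members among 968 genes (6.9% of those it tested), and edgeR called 6 among 2370 genes (15.1%) with clone 69 in Balb/c left out. With clone 54 in Balb/c left out edgeR called 0 members and 1 gene, and with the line block 0 members and 0 genes. A fit without either clone rests on the other alone, with its spread assumed from the other groups. The knockout comparison of each host, the host comparisons and the interaction share the same libraries, so that they are not independent of each other. For 5 of 9 members, Adgre1, Cd68, Csf1r, Mertk and Fcgr1, both knockout libraries lay below both wild-type libraries in NSG and above both in Balb/c, an order found for 9.15% of all genes.

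Over the 8 libraries the members did not move as one group. Cd68 and Csf1r had a Pearson correlation of log2(CPM + 0.5) of 0.904, Cd68 and Mertk of 0.867, Adgre1 and Csf1r of 0.861, and Mertk and Fcgr1 of 0.837. Csf1r and its ligand Csf1 had one of -0.153, and Il34 had -0.910 with Ly6c2 and -0.805 with Adgre1. These are descriptions over 8 libraries that fall into 4 groups and share 4 lines. Among 11431 genes with a mean of at least 5 CPM, the profile most like that of Adgre1 was that of Tmsb4x (r = 0.995 over 8 libraries), then Apmap (0.994) and Tyrobp (0.991). For Csf1r these were Cebpa (0.992), Mgl2 (0.989) and Creb3 (0.987), and for Ly6c2 they were Tgtp1 (0.979), Taf8 (0.978) and Cd24a (0.977).

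Partners of the members were taken from 8 lists of 76 genes, all of which were tested. In the host comparison of wild-type tumors 41 of 76 passed (26 higher and 15 lower in Balb/c), where 31.5% of all genes did, and 21 with the line block. In knockout tumors 53 passed (45 higher and 8 lower), where 31.1% of all genes did, and 37 with the line block. With 1 wild-type library left out (NSG parental, NSG vCas9, Balb/c parental or Balb/c vCas9), 8, 17, 19 or 15 partners passed between wild-type tumors, among them Fgr and Csf2ra each time, while between knockout tumors 35 to 51 passed without any 1 library. Their median log2 fold change was 0.41 and 1.05 in these comparisons, beside -0.08 and 0.02 over all genes.

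Of 21 genes for macrophage lineage factors and for signalling proteins of the CSF1R and ITAM pathways, 13 were higher in Balb/c than in NSG wild-type tumors and 0 were lower (9 with the line block). The Src-family kinase Fgr had a mean of 40.8 CPM in NSG and 181 CPM in Balb/c (log2 fold change 2.15, SE 0.23), and Syk, the kinase recruited by ITAM adaptors, had 329 and 1190 CPM. Spi1, which encodes PU.1, stood at 72.1 ± 6.54 against 111 ± 0.565 CPM (SD, n = 2 each; log2 fold change 0.63, SE 0.17, edgeR, adjusted p = 0.0297, or 0.0915 with the line block). In knockout tumors 19 of the 21 were higher and 0 lower (13 with the line block), among them Irf8 (2.47, SE 0.35), Cebpa (2.06, SE 0.38), Tyrobp (1.35, SE 0.17) and Spi1 (1.15, SE 0.17). Csf1r, which is not on that list, also passed between knockout tumors and not between wild-type tumors.

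The GM-CSF receptor genes Csf2ra and Csf2rb were higher in Balb/c than in NSG tumors at both genotypes; with the line block Csf2ra kept both calls (edgeR, adjusted p = 0.0225 and 0.00963) and Csf2rb lost both (edgeR, adjusted p = 0.078 and 0.0857). Csf2ra, the ligand-binding subunit, stood in wild-type tumors at 94.2 ± 7.42 CPM (NSG) and 230 ± 5.60 CPM (Balb/c) (SD, n = 2 each; log2 fold change 1.29, SE 0.17, edgeR, adjusted p = 0.00291), and Csf2rb, the shared signalling subunit, at 550 ± 66.1 and 1590 ± 225 CPM. The G-CSF gene Csf3 was lower, from 141 to 31.7 CPM (log2 fold change -2.16, SE 0.49; edgeR, adjusted p = 0.0603 with the line block). Sdc1, a syndecan that can bind IL34, was lower in Balb/c at both genotypes, with log2 fold changes of -1.12 and -1.42 (edgeR, adjusted p = 0.028 and 0.0111). In this list of 8 genes 4 were higher and 2 lower between wild-type tumors (1 and 1 with the line block), and 3 were higher and 3 lower between knockout tumors (2 and 2 with the block).

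A list of 10 genes held MERTK ligands, related receptors and genes of other routes for binding dying cells. Of these, 7 were lower and 1 was higher in Balb/c wild-type tumors (2 lower with the line block). Axl, the related receptor, stood at 548 ± 68.1 CPM in NSG and 181 ± 33.1 CPM in Balb/c (SD, n = 2 each; log2 fold change -1.60, SE 0.34, edgeR, adjusted p = 0.013). The ligands Gas6 and Pros1 had log2 fold changes of -1.13 (SE 0.36) and -0.99 (SE 0.28). The third receptor of the family, Tyro3, had -1.55 (SE 0.33). With the line block Axl kept its call (edgeR, adjusted p = 0.0359), while Gas6, Pros1 and Tyro3 lost theirs (edgeR, adjusted p = 0.054, 0.0697 and 0.0552). In knockout tumors 1 was higher and 1 lower of the 10: Timd4, which binds phosphatidylserine, at 3.40 (SE 0.40), and Axl at -1.34 (SE 0.34), both also called with the block. Mfge8, the bridging protein for dying cells, was the one partner called in a knockout comparison, at 67.4 ± 5.28 CPM in wild-type and 182 ± 0.139 CPM in knockout tumors of Balb/c mice (SD, n = 2 each; log2 fold change 1.43, SE 0.18, edgeR, adjusted p = 0.045), a call that ended when any 1 of the 7 libraries other than clone 69 in Balb/c was left out.

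Among Fc receptor genes other than Fcgr1, the activating receptor Fcgr4 was higher in Balb/c wild-type tumors (1.61, SE 0.25, edgeR, adjusted p = 0.00503), the direction opposite to that of Fcgr1, and it was the only one of the 5 to pass (likewise with the line block, edgeR, adjusted p = 0.019). In knockout tumors all 5 passed and were higher (4 with the line block). They included the inhibitory receptor Fcgr2b at 2.51 (SE 0.33) and Fcgr4, with means of 28 CPM in NSG and 159 CPM in Balb/c. The Itgam partner Itgb2 was higher at both genotypes, by 1.03 (SE 0.23) and 1.98 (SE 0.23), though not between wild-type tumors with the line block (edgeR, adjusted p = 0.0574). Itgad, the CD11d subunit, was lower at both, with log2 fold changes of -3.35 (SE 0.41) and -3.24 (SE 0.40). Counts over this list of 7 were 3 higher and 1 lower in wild-type tumors and 4 higher and 1 lower in knockout tumors (2 and 1, then 4 and 1, with the line block).

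Ly6c1, the paralog of Ly6c2 that endothelial cells also carry, was lower in Balb/c than in NSG knockout tumors (60.1 ± 2.31 against 167 ± 71.2 CPM; SD, n = 2 each; log2 fold change -1.48, SE 0.31, edgeR, adjusted p = 0.0101). Of the 5 Ly6 genes 1 was higher in wild-type tumors (0 with the line block), and 1 was higher and 2 lower in knockout tumors (0 and 2 with the block). Of 10 other monocyte genes, 3 were higher and 3 lower between wild-type tumors (1 and 2 with the block), with Cx3cr1, found on patrolling monocytes and resident macrophages, among the lower ones at -2.86 (SE 0.57). Between knockout tumors 3 were higher and 1 lower (0 and 1 with the block).

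Lysosome and phagocyte genes, the compartment in which Cd68 resides, were called in different numbers at each genotype. In wild-type tumors 0 of 10 were higher in Balb/c and 2 were lower, Lyz2 at -1.40 (SE 0.35) and Gpnmb at -1.11 (SE 0.25). With the line block Gpnmb kept its call and Lyz2 lost it (edgeR, adjusted p = 0.0345 and 0.0528). In knockout tumors 9 of 10 were higher and 0 lower (6 with the line block), among them the cathepsin genes Ctss, from 445 to 3590 CPM, and Ctsl, from 565 to 2480 CPM, and the perforin-like Mpeg1, from 302 to 952 CPM. The Balb/c mean of Ctss had an SD of 2140 over the clones.

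**Figure D4:**
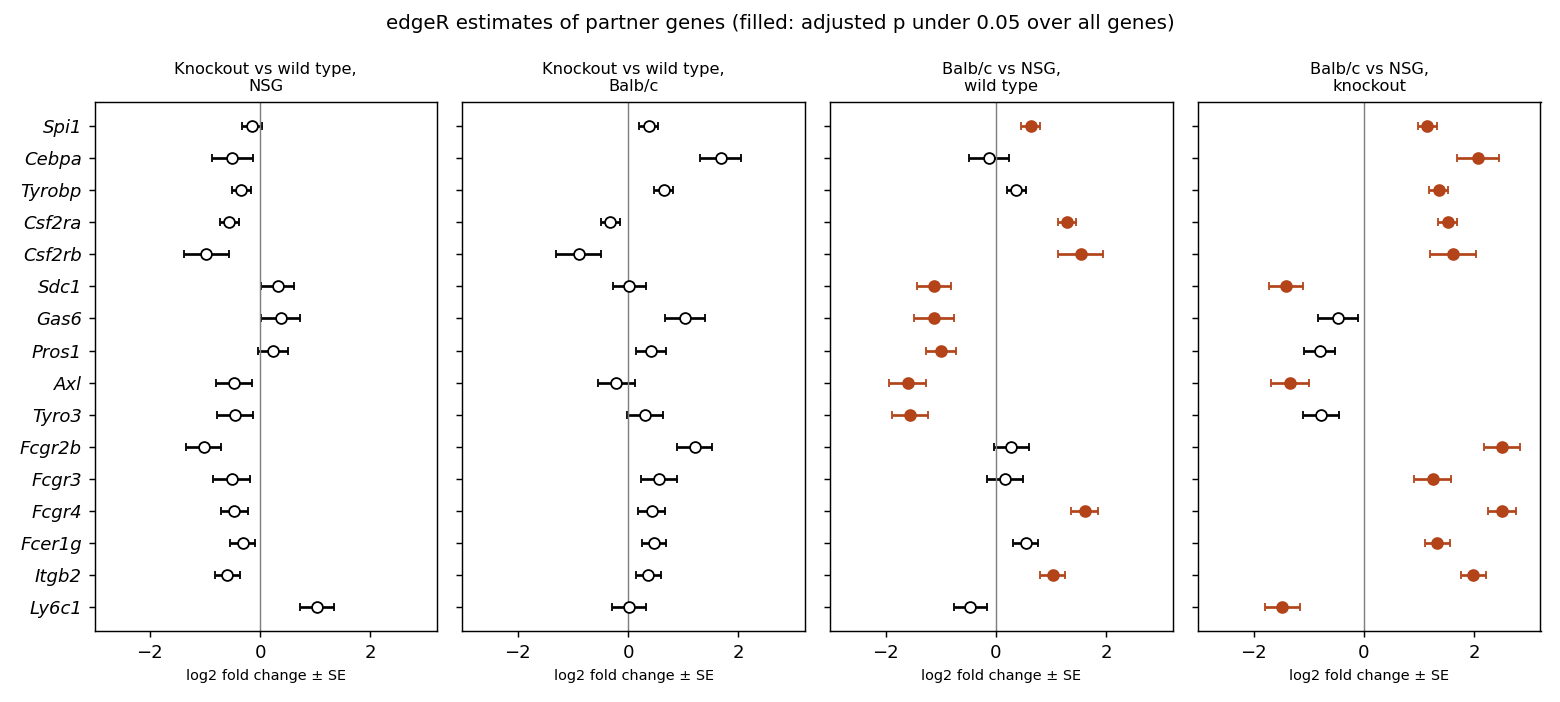
Log2 fold change with standard error (edgeR, 8 libraries) of 16 partner genes in the knockout comparison of each host and the host comparison of each genotype. Symbols are filled where the adjusted p over all genes was under 0.05. Csf2ra, Csf2rb, Fcgr4, Itgb2 and Spi1 are filled above 0 in both host panels, Axl and Sdc1 below 0, and none of these genes is filled in the knockout panels.

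Within NSG hosts 0 of the 76 partners passed in the knockout comparison (edgeR, with 0.0131% of all genes called). There were 21 at an unadjusted p under 0.05 (14% of all genes) and 7, all lower, by DESeq2 (2.41%). Within Balb/c hosts 1 passed (0.176% of all genes), with 32 at an unadjusted p under 0.05 (30.9%) and 23 by DESeq2 (15%). The interaction gave 0 by edgeR (0% of all genes), 30 at an unadjusted p under 0.05 (22.5%) and 19 by DESeq2 (6.9%). Of the lysosome and phagocyte genes, 10 of 10 had estimates below 0 in NSG (median -0.72) and 10 of 10 above 0 in Balb/c (median 1.08).

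Marker levels of other cells differed between the same groups, and their part in the member results was not tested. Neutrophil markers, cells that also carry Itgam, summed to between 1616 and 4062 CPM over the 4 NSG libraries, to 8137 CPM in the parental and 6562 CPM in the vCas9 library of Balb/c, and to 907 CPM in clone 54 and 3037 CPM in clone 69 there. All 10 were counted, apart from Camp, which was at 0 in clone 54. Between wild-type tumors 6 of the 10 were higher in Balb/c. Eosinophil markers, another CD11b-positive lineage, summed to between 4.71 and 34.4 CPM in NSG and between 311 and 619 CPM in Balb/c, with Epx and Prg3 at 0 in all 4 NSG libraries. All 8 were higher in Balb/c wild-type tumors and 7 of 8 in knockout tumors. Prg2, Ear6 and Il5ra were also scarce in NSG tumors, with 0 to 7, 0 to 1 and 0 to 3 counts per library. For these genes, Epx and Prg3 the comparison is with a level at or near 0, so the size of the difference is uncertain. T cell markers summed to between 3.96 and 10.02 CPM in NSG and between 312 and 363 CPM in Balb/c, with 8 of 8 higher at both genotypes. Among them, Cd3g and Cd8b1 reached only 0 to 1 and 0 to 2 counts per NSG library. Their calls likewise compare Balb/c with a level at or near 0.

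Dendritic cell markers, of a lineage that shares Csf1r and Itgam in part, summed to between 26.8 and 70.7 CPM in NSG and between 111 and 267 CPM in Balb/c. Of these 7 markers 5 were higher in Balb/c wild-type and 6 in knockout tumors. Fibroblasts are a known source of CSF1, and their 7 markers summed to 6526 and 9765 CPM in wild-type and 12640 and 12530 CPM in knockout tumors of NSG mice. In Balb/c they summed to 5019 and 3894 CPM in wild-type tumors, 5260 CPM in clone 54 and 1689 CPM in clone 69. In the Balb/c knockout libraries, tumor epithelial markers summed to 3756 CPM in clone 69 and to 695 CPM in clone 54, the highest and the lowest of the 8. In NSG tumors endothelial markers summed to between 203 and 430 CPM and B cell markers to between 0.895 and 1.33 CPM. NK cell markers summed to between 1.94 and 9.42 CPM in NSG and between 22.6 and 49.4 CPM in Balb/c.

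**Figure D5:**
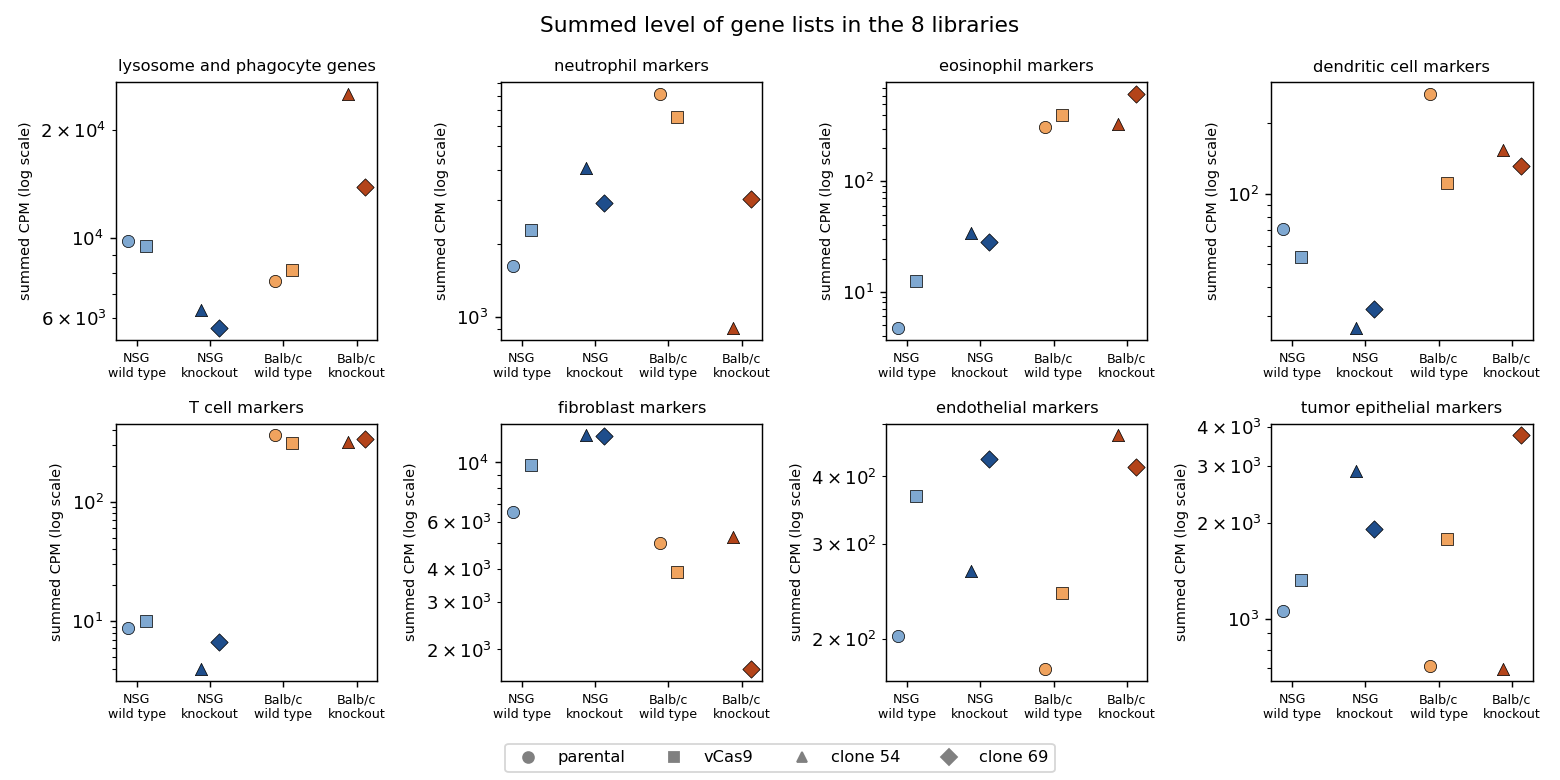
Summed CPM of the lysosome and phagocyte list and of 7 marker lists for other cell types in the 8 libraries, by group and line, on logarithmic axes. Eosinophil and T cell markers are higher in every Balb/c than in every NSG library, and neutrophil markers are lowest in the Balb/c library of clone 54.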

How the data were processed

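RNA from whole tumors was sequenced as 8 libraries, 2 in each of 4 groups of host and CD95 genotype. The deposited files hold whole-number read counts per Ensembl gene (25006 identifiers, not normalized), made by the authors; the submitters' processing notes name cutadapt 1.13, STAR, HTSeq 0.6.1p1 and DESeq2, and the builds mm10 and hg19, without roles. Identifiers were matched to GENCODE M21 (24942 had a symbol).

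The counts were normalised by TMM and tested with edgeR 4.0.16 (R 4.3.3) in 1 quasi-likelihood fit of the 4 group means over 15310 genes kept by filterByExpr, with Benjamini-Hochberg adjustment over all of them and 4 residual degrees of freedom. Levels are CPM from TMM library sizes, per kilobase of GENCODE exon where genes are compared. The common biological coefficient of variation was 0.244. Differences between genes used log2(CPM + 0.5) and exact permutation tests. On simulated data, 94 to 96.5% of 200 genes changed by 4 times were recovered in the 4 group comparisons and 54.5% in the interaction. The simulation gave every gene and group the same biological spread. Real libraries of a group correlated less evenly, at 0.987 in NSG wild-type and 0.96 in Balb/c knockout tumors (log2 levels). The simulated recovery therefore does not give the power of the real comparisons. Alternatives were RLE size factors, total-count scaling, DESeq2 1.42.0, other low-count filters, a line block (sign flips over lines for differences between genes), fits of 4 libraries, and leaving out each library.

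Named genes were the 9 members, fixed direct partners, up to 3 called genes of largest change per list and comparison, and the 3 profiles most like those of Adgre1, Csf1r and Ly6c2. Some genes that meet this rule are not reported here. The members and all gene lists were chosen with earlier results of these data known. The line is shared between hosts by label, so it pairs the libraries; the parental-minus-vCas9 difference correlated between hosts at 0.0813 and the clone difference at -0.384. No pair of libraries agreed within sampling noise.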

Additional observations from a re-analysis of the deposited data

Results flagged for a closer look

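For 5 members, Csf1r and the identity genes, both NSG knockout libraries lay below both NSG wild-type libraries. Both Balb/c knockout libraries lay above both Balb/c wild-type libraries, and the 2 together are what singled these members out. That order, with no overlap in either host, was found for 9.15% of all 15310 genes, and opposite orders of either kind for 16.3%. The interaction estimate, as the log2 knockout effect in Balb/c minus that in NSG, was 1.81 for Adgre1, 2.25 for Cd68, 1.56 for Csf1r, 1.95 for Mertk and 1.96 for Fcgr1. The difference was tested and none of the 5 passed in edgeR (adjusted p between 0.0778 and 0.113), nor with the line block (0 genes). All 5 passed in DESeq2 (6.9% of the genes it tested). In edgeR the result also turned on which Balb/c clone was left out. Such a fit leaves 1 library in that group, with its spread assumed from the other groups.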

How the results depend on the processing

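Counts of genes called at an adjusted p under 0.05 moved with the setting. For the knockout in NSG (2 genes, 0 members) DESeq2 called 339 genes and 1 member, no low-count filter 133 genes and a fit of only the 4 libraries 1 gene. In Balb/c (27 genes, 0 members) RLE size factors gave 94 genes, DESeq2 2161 genes and 5 members, no filter 1774 genes and 4 members, and 4 libraries 0 genes. For the interaction (0 and 0) DESeq2 gave 968 genes and 5 members, and no filter 674 genes and 4 members. Between hosts, a fit of only the 4 knockout libraries gave 2450 genes and 3 members, and one of only the 4 wild-type libraries 6838 genes and 8 members. The cause was not tested.

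Pairing libraries by line, the replicate block, gave 2073 genes and 0 members between hosts in wild-type tumors (4825 and 6 without it), 2878 genes and 3 members in knockout tumors (4757 and 5), and 0 genes and 0 members in the interaction. Of the partner genes named, 9 of 19 wild-type and 4 of 21 knockout host calls were lost under that block. Crossing the clone numbers, chosen after seeing the data, gave 5733, 5436 and 307 genes and 7, 7 and 4 members. Exact sign flips over the 4 lines as the replicate block, also chosen after seeing the data, gave p = 0.125 for Csf1 minus Il34 (2.26) and Mertk minus Csf1r (-0.65), the smallest p possible there, which says nothing about their stability. Total-count scaling lowered the share of host calls that were higher in Balb/c from 48.6% to 36.5% in wild-type and from 50.5% to 37.3% in knockout tumors.

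Leaving out each library gave 0 to 1 genes and 0 members for the knockout in NSG, 0 to 3886 genes and 0 to 6 members in Balb/c, 858 to 6361 genes and 0 to 8 members between wild-type tumors, 2461 to 4640 genes and 4 to 6 members between knockout tumors, and 0 to 2370 genes and 0 to 6 members in the interaction. Each such fit leaves 1 library in a group, with its spread assumed from the other groups. Some estimates that had not passed changed sign. For the knockout these were Ly6c2 in NSG (-0.063 to 1.34) and Itgam (-0.035 to 0.161), Il34 (-1.23 to 0.012) and Ly6c2 (-0.015 to 0.388) in Balb/c. In the interaction they were Il34 (-0.86 to 0.40), Ly6c2 (-1.08 to 0.32) and Csf1 (-0.946 to 0.025). Differences within a library ran from 1.98 to 2.67 for Csf1 minus Il34, from -0.74 to -0.53 for Mertk minus Csf1r and from 0.50 to 1.16 for Ly6c2 minus Csf1r, with exact permutation p-values from 0.0286 to 0.0571 for the first pair and the second and from 0.114 to 0.457 for the third.

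With 2 libraries a group, knockout estimates of 1.26 (Adgre1) and 1.36 (Cd68) did not reach the adjusted threshold, and a p that missed it does not show that levels were alike. Il34, at 26 to 193 counts, and Ly6c2, at 59 to 351, carry the largest counting error of the members.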
